A study of Mus musculus with 6 samples.

Results

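The genes described here are molecular chaperones and genes of the endoplasmic reticulum stress response in whole mouse brain. The members were the probe sets annotated to exactly 1 gene whose symbol is on a list of 34 such genes. They came to 80 probe sets of 32 genes, out of 45037 probe sets in all, and 70 of them, covering the 32 genes, were bright enough to be tested. Hsp90ab1 and Hsf1, the other two listed genes, had no such probe set and were not analysed here. The list was taken in classes: 10 measured cytosolic and nuclear heat shock genes, 3 mitochondrial chaperones, 14 genes whose products work in or on the endoplasmic reticulum, and 5 regulators of the stress response.

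The arrays were Affymetrix arrays of 3 brains from mice heterozygous for a knockout of periphilin (Pphln1) and of 3 brains from wild-type C57BL/6 littermates, 1 animal per array. Every mouse was a male aged 2 months, and no further treatment is named. Periphilin belongs to HUSH, a complex that keeps retroelements silent, and the comparison asks how 1 disrupted copy alters expression in the brain. Where the disruption lies, and the strain on which the mutation was made, are not given in the sources used here.

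Chaperones bind unfolded proteins and keep them from clumping. In the cytosol, heat shock factor turns on the inducible members when unfolded protein builds up. Members such as Hspa8 are made at high levels without stress, above all in neurons. Inside the endoplasmic reticulum, a separate set of chaperones folds secreted and membrane proteins, and the sensors Ire1, Perk and Atf6 raise their transcription through Xbp1, Atf4 and Atf6 itself when folding falls behind.

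A sequence feature of part of the reticulum genes is the endoplasmic reticulum stress element. It is CCAAT followed after 9 bases of any kind by CCACG, and is bound by the factor NF-Y together with Atf6 or Xbp1. RefSeq promoter windows (build GRCm38.p6, 250 bases before to 50 after each start) were on hand for 26 of the 34 genes and were searched on both strands. The element was found in 7 of 12 reticulum genes with a window, against 0.137% of all 27025 genes with one. Since the list was drawn up as stress genes, a high share is partly built in. Dnajb9, Herpud1, Pdia3, Pdia4 and Sdf2l1 had a window without the element. It was found in none of the 8 cytosolic, 2 mitochondrial or 4 regulator genes with a window. A match is a description of letters, and no match says only that these letters are not in this window. The stretches of 250 bases before the start are shown for 4 genes whose values are given in full below, with the matches in capitals, 5′ to 3′ on the gene's strand. They lie at chr2:34771840-34772089 (Hspa5, plus strand), chr10:86705445-86705694 (Hsp90b1, minus strand), chr8:84846932-84847181 (Calr, minus strand) and chr8:94386179-94386428 (Herpud1, plus strand).
Hspa5: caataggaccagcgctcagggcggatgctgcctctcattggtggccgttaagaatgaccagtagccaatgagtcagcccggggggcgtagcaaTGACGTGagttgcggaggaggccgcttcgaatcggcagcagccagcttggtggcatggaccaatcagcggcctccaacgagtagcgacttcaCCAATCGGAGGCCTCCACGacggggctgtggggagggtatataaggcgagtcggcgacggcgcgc
Hsp90b1: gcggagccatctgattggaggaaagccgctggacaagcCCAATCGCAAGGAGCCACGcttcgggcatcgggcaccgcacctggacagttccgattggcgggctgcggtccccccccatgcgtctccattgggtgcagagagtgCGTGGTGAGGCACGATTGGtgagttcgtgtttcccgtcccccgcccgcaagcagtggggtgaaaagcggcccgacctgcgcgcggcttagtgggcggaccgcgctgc
Calr: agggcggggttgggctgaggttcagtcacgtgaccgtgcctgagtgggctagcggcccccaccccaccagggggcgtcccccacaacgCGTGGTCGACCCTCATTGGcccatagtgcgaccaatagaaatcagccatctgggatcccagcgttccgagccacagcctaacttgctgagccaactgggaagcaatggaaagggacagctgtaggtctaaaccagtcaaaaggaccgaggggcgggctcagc
Herpud1: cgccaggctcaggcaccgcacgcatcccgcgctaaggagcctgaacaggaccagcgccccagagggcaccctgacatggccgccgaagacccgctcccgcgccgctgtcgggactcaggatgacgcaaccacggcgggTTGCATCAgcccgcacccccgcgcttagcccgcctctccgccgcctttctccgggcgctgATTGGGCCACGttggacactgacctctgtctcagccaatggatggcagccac

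In Hspa5 the element began 65 bases before the start, and the capitals further upstream mark TGACGTG, the core of the unfolded protein response element, which 2.22% of all genes with a window hold. Hsp90b1 held 2 copies of the stress element, in opposite orientations, which began 212 and 107 bases before the start. The Calr copy reads on the other strand. Herpud1 held the shorter second form of the element, ATTGG and CCACG with 1 base between them, found in 0.0444% of all genes, and TTGCATCA, the reverse complement of TGATGCAA, a core of the amino acid response element bound by Atf4 with its partners, found in 1.03%. The copies in the other genes are shown to compare their spacer bases, read as they stand on each gene's strand, since the ends are fixed by the search.
Canx: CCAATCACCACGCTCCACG
Creld2: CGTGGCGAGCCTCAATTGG
Dnajc3: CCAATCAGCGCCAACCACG
Pdia6: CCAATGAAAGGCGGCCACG

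A heat shock element, searched as GAA, TTC and GAA with 2 bases of any kind between neighbours, stood in 0.662% of all genes with a window. It was found in Hspe1 and Hspd1, which are transcribed away from each other from a shared stretch of chromosome 1 and share the same copy, and downstream of the start in Hsph1. Those were 2 of 2 mitochondrial and 1 of 8 cytosolic genes with a window, and no reticulum or regulator gene had a match. The other cytosolic genes with a window, Hspa1a and Hspa1b among them, had no match to this strict pattern. The Hspe1 copy, with capitals marking a pair of overlapping matches, lies within the 250 bases at chr1:55087898-55088147 (plus strand), printed because the promoter serves both parts of the mitochondrial chaperonin.
Hspe1: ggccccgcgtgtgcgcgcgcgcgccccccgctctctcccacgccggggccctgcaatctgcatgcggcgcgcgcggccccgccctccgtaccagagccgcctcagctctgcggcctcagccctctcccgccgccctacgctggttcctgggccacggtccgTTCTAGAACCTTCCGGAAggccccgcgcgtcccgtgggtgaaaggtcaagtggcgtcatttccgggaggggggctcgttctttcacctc

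Levels are given as intensities on the linear scale the authors deposited. Differences are of log2(intensity + 16), heterozygous minus wild type, with standard errors and 95% confidence intervals from limma. A gene is represented by its brightest probe set, the one with the highest mean log2 level, unless another is named. Array medians ranged from 31.2 to 34.5, and the number of arrays limits the precision. Brain markers were present on every array: the summed intensity of 10 neuron markers was 33358 to 37764 in heterozygous and 33432 to 34484 in wild-type brains. In sign, 8 of them were higher and 2 lower, the 6 endothelial markers 3 higher and 3 lower, the 6 choroid plexus markers 2 higher and 4 lower, and Alas2, the only tested one of 4 blood markers, lay at -0.09. Pituitary hormone genes were uneven. Pomc measured 4380 in wild type 1 and 62.2 to 130.3 on the other arrays, and Prl measured 8306 in wild type 1, 3730 in heterozygous 3 and 38.8 to 456.1 on the rest. Pphln1 itself measured 319.8 ± 44.5 against 299.7 ± 12.6 (SD, n = 3 each) at its brighter probe set, and 37.2 ± 6.91 against 52.3 ± 9.50 at the dimmer one. Since the position of the disruption is unknown here, neither checks the labels.

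No chaperone or stress gene passed the test between genotypes. Of the 70 member probe sets, 0 had a limma adjusted p below 0.05, against 0.0148% of all 27022 tested (0.00768% of the 13024 genes at their brightest probe set), and the lowest adjusted p among them was 0.956. Without adjustment, 7 of 70 had a limma p below 0.05, or 10% against 4.83% of all probe sets. Of these, 6 were lower in heterozygous brains (background 2.4%) and 1 was higher (background 2.43%). The 7 included 2 of Calr, so they are not separate genes. By gene, 3 of 32 had such a p (9.38%, against 4.38% of all genes): Canx and Hsp90b1, lower (background 2.26%), and Pdia4, higher (background 2.13%). Without wild type 1 that count was 0, and without heterozygous 1 it was 1. The genotypes did not overlap at 12 of 70 probe sets (17.1%, against 10.2%), 7 lower (background 4.81%) and 5 higher (background 5.43%). By gene they did not overlap for 6 of 32 (18.8%, against 10.1% of all genes). The lower ones were Calr, Hsp90b1 and Dnajb9 (background 4.95%), and the higher ones Pdia4, Pdia6 and Dnaja1 (background 5.19%). In whole tissue, fewer cells of a type and less RNA per cell cannot be told apart.

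**Figure D1:**
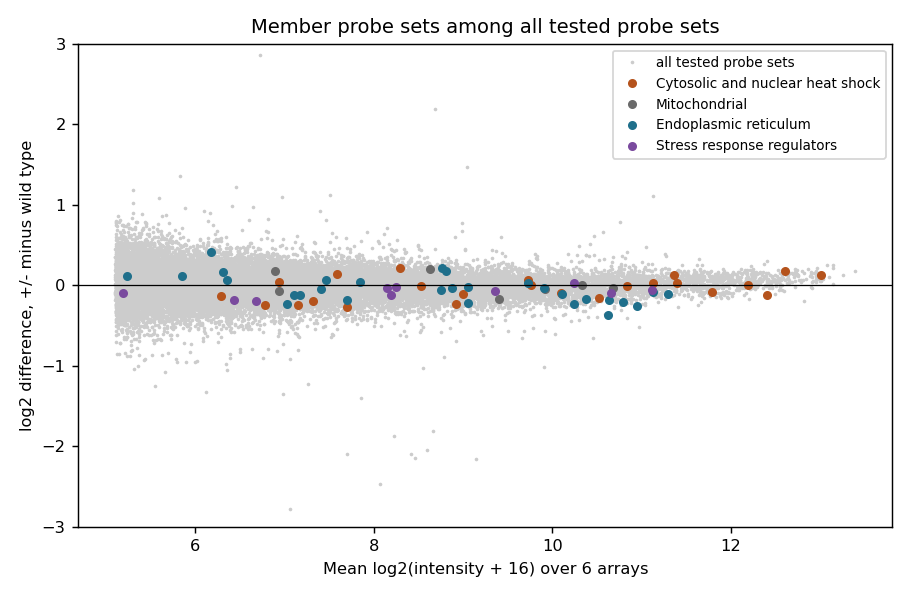
Mean level over the 6 arrays (x axis, log2(intensity + 16)) against the log2 difference between genotypes (y axis) for all 27022 tested probe sets in grey and the 70 member probe sets in colour by class. The members lie between -0.37 (Calr) and 0.41 (Pdia4), among the other probe sets.

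On the scale of intensity + 16, to which all folds here refer, the differences were small enough for the intervals to bound them. For 31 of 32 genes the 95% interval excluded a rise of 1.5-fold in heterozygous brains, the exception being Pdia4, whose upper limit was 1.68-fold. For 31 of 32 it excluded a fall by the same factor, with Hspa1b, at a lower limit of 0.61, the exception. A change of 2-fold in either direction lay outside all 32 intervals. The intervals are per gene and not adjusted for their number. The ratios are on the log2(intensity + 16) scale and understate changes of dim genes such as Trib3, Pdia4 and Sdf2l1. For such genes the counts above do not carry over to folds of intensity itself. Trib3, at 19.3 against 22.3, had a lower limit of 0.68 on this scale, which is a larger fall in intensity.

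**Figure D2:**
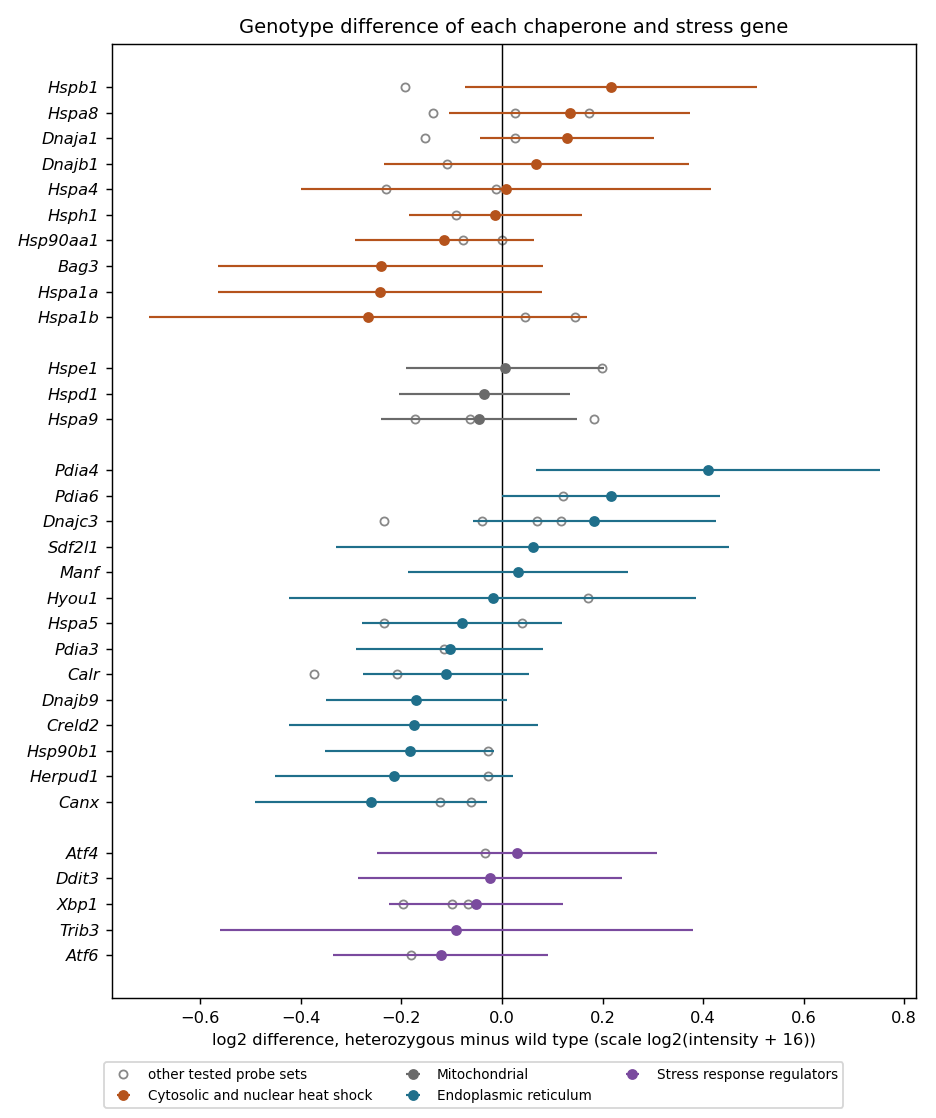
Log2 difference, heterozygous minus wild type, of each of the 32 genes (filled points, brightest tested probe set, bars the 95% confidence interval from limma, 3 brains per genotype), with the other tested probe sets of the same gene as open points. The bars of Pdia4, Canx and Hsp90b1 alone leave 0 out, and open points on the far side of 0 mark genes whose probe sets differ in sign.

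Endoplasmic reticulum genes had a median log2 difference of -0.09 over 14 genes, 9 lower and 5 higher in sign, beside 0.01 over all genes. Calr encodes calreticulin, a lectin that retains glycoproteins until they are folded and buffers calcium. At its brightest probe set the heterozygous brains measured 2496, 2392 and 2329 and the wild-type brains 2586, 2618 and 2592. The groups did not overlap, but lay close together: the log2 difference was -0.11 (SE 0.07, limma adjusted p = 0.956). At the third they measured 1449, 1384 and 1286 against 1795, 1645 and 1912, a ratio of 0.77 with limits of 0.68 and 0.88 and a log2 difference of -0.37 (SE 0.09, limma p = 0.00134, adjusted p = 0.956, exact permutation p = 0.1). At the second they measured 1622, 1684 and 1592 against 1876, 1792 and 2005, a log2 difference of -0.21 (SE 0.08, limma p = 0.0235, adjusted p = 0.956, exact permutation p = 0.1). Every heterozygous brain was thus below every wild-type brain at each of the 3 Calr probe sets. With 3 brains a genotype, the exact permutation test cannot return a p under 0.1. The names of the second and the third carry the suffix x, which marks probe sets with probes that can also match other transcripts. Among others given below, the brightest and the second probe set of Hspa8 and the second of Hspb1 carry it too. With 1 array left out in turn, the difference at the third Calr probe set ranged from -0.43 to -0.32.

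Canx, the membrane-bound partner of calreticulin in the same lectin cycle, measured 1685, 1987 and 1731 in heterozygous and 2228, 2383 and 1882 in wild-type brains. Heterozygous 2 lay above wild type 3, so the groups overlapped, and the log2 difference was -0.26 (SE 0.10, limma p = 0.0302, adjusted p = 0.956, exact permutation p = 0.2). Its other probe sets lay at -0.06 and -0.12. Pdia3, the disulfide isomerase that both lectins recruit, measured 1048 ± 62.9 against 1127 ± 60.6, a log2 difference of -0.10 (SE 0.08). All 8 tested probe sets of these 3 lectin-cycle genes were lower in sign, a grouping picked out after their values were seen. Other genes of the cycle, from the wider folding list below, were higher in sign at their brightest probe sets. They were Uggt1 at 0.18 (SE 0.19), Uggt2 at 0.22 (SE 0.21), Ganab at 0.00 (SE 0.11), Prkcsh at 0.04 (SE 0.09) and Mogs at 0.05 (SE 0.12). A shared fall of the cycle is thus not shown, and neither is an opposite change of these genes.

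Among the large chaperones, Hsp90b1, the reticulum's Hsp90, measured 1454, 1493 and 1471 in heterozygous and 1749, 1669 and 1607 in wild-type brains. The heterozygous values sat within a narrow range below all wild-type values, with a log2 difference of -0.18 (SE 0.08, limma p = 0.0355, adjusted p = 0.956, exact permutation p = 0.1). Its second probe set lay at -0.03 with overlapping groups. Hspa5, or BiP, the Hsp70 of the reticulum that also holds the stress sensors inactive, measured 2151, 2149 and 2169.5 against 2027, 2496 and 2339.7, with wild type 1 the lowest of all (log2 difference -0.08, SE 0.09). At its second probe set it measured 1107, 1055 and 1132 against 1247, 1356 and 1281, without overlap, a log2 difference of -0.23 (SE 0.08, limma p = 0.0130, adjusted p = 0.956, exact permutation p = 0.1). The third lay at 0.04. Hyou1, a nucleotide exchange factor for BiP, varied widely within both genotypes, at 520.9 ± 116 against 528.5 ± 123 (-0.02, SE 0.18).

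**Figure D3:**
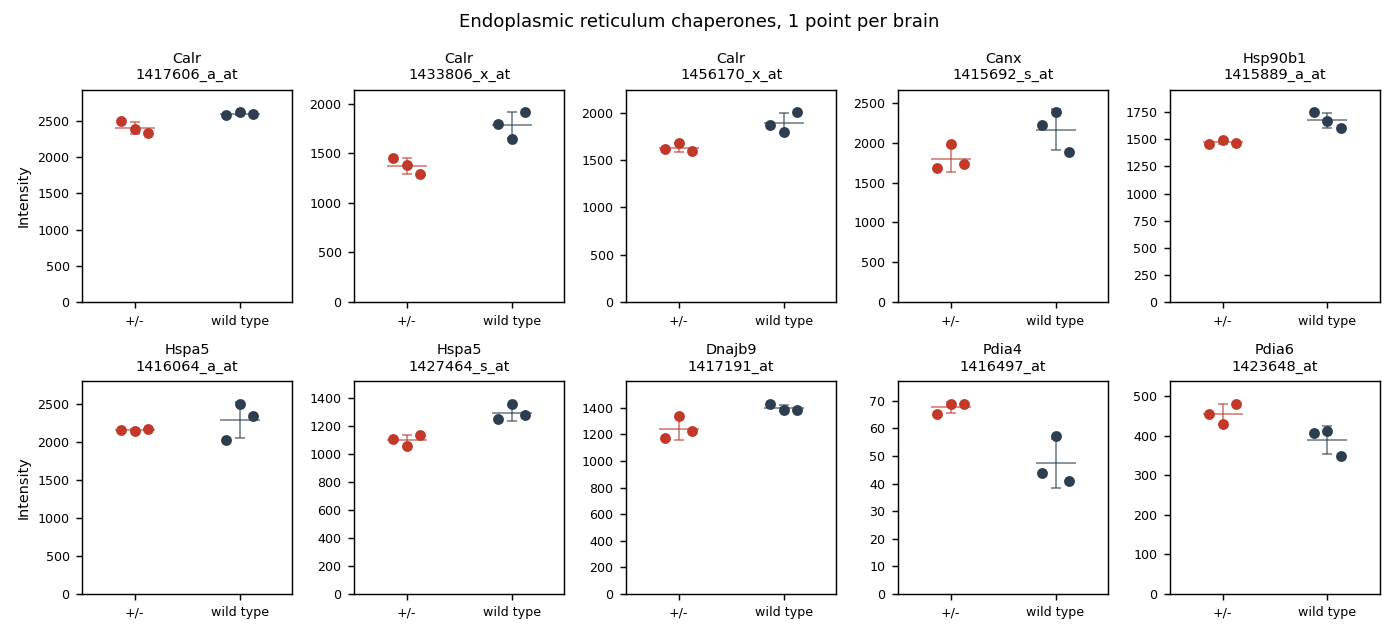
Intensity (y axis, linear, from 0) of 7 reticulum genes at 10 probe sets in heterozygous (+/-) and wild-type brains, 1 point per brain, with the mean as a line and the SD as a bar. The points of the genotypes do not overlap at the 3 Calr probe sets, Hsp90b1, the second of Hspa5, Dnajb9, Pdia4 and Pdia6, and overlap at Canx and at the brightest of Hspa5. The panels hold every tested reticulum probe set without overlap, 8 of 29 (27.6%, against 10.2% of all probe sets), and so do not stand for the class. Probe-set names head the panels.

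The disulfide isomerases Pdia4 and Pdia6 lay on the other side of 0 from Pdia3. Pdia4 measured 65.4, 68.7 and 68.8 in heterozygous and 43.9, 57.3 and 40.8 in wild-type brains, a log2 difference of 0.41 (SE 0.16, limma p = 0.0231, adjusted p = 0.956, exact permutation p = 0.1). It is a dim probe set, and its difference moved with the pseudocount, to 0.24 at 64 and 0.52 at 1. Its other probe set was below the dim limit on average. Pdia6, which also tunes the sensor Ire1, measured 454.8, 428.8 and 480.1 against 408.3, 412.9 and 347.8, a log2 difference of 0.22 (SE 0.10, limma p = 0.0506, adjusted p = 0.956, exact permutation p = 0.1). The groups did not overlap there, and its dimmer probe set lay at 0.12.

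Among the co-chaperones of BiP, Dnajb9 measured 1169, 1337 and 1223 in heterozygous and 1427, 1384 and 1384 in wild-type brains, without overlap (log2 difference -0.17, SE 0.08, limma p = 0.0609, adjusted p = 0.956, exact permutation p = 0.1). Dnajc3, which also inhibits the kinase Perk, lay at 0.18 (SE 0.11) with its other 4 probe sets from -0.23 to 0.12, and Sdf2l1 at 0.06 (SE 0.18). Herpud1, a membrane protein of the degradation pathway, measured 453.2, 433.1 and 549.4 against 529.8, 534.5 and 603.7. Heterozygous 3 lay within the wild-type range, and the log2 difference was -0.21 (SE 0.11, limma adjusted p = 0.956), with -0.03 at its second probe set. Creld2, a secreted stress protein, lay at -0.18 (SE 0.11). Manf, a secreted factor that supports neurons, lay at 0.03 (SE 0.10). Creld2 and Atf4 lie on chromosome 15, as Pphln1 does.

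The 7 genes with the full stress element in their window did not share a sign. Canx (-0.26), Hsp90b1 (-0.18), Creld2 (-0.18), Calr (-0.11) and Hspa5 (-0.08) were lower, and Dnajc3 (0.18) and Pdia6 (0.22) higher, and none was called. The summed intensity of the 14 reticulum genes was 12991.5, 13670.4 and 12947.5 in heterozygous and 14097.1, 14807.1 and 13924.0 in wild-type brains. These sums did not overlap, nor under quantile normalization, but did when arrays were centred on their medians, where heterozygous 2 reached 13928 and wild type 1 was at 13925. A sum is carried by the bright genes. The mean log2 deviation of the same genes, in which each gene counts alike, was -0.05, 0.05 and -0.04 against -0.01, 0.07 and -0.01, and overlapped. The 6 tested of 8 pituitary markers were summed at 21234 in wild type 1 and at most 6709 on the other arrays. Astrocyte markers were 5 lower and 3 higher in sign, from Gfap at -0.40 (SE 0.20) and Slc1a3 at -0.27 (SE 0.12), the only one with an unadjusted limma p below 0.05, to Aqp4 at 0.05 and Aldoc at 0.16. All 8 were tested, and their sums ran from 18478 to 20922 in heterozygous and from 18989 to 19737 in wild-type brains. The 6 microglia markers were 4 lower and 2 higher, from Cx3cr1 at -0.34 (SE 0.18) and Csf1r at -0.10 to Aif1 at 0.05 and P2ry12 at 0.08. Their sums ran from 2079 to 2289.9 against 2214 to 2525. None of these markers was called, and the part of pituitary, astrocytes or microglia in the reticulum values was not tested.

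The regulators of the unfolded protein response showed no difference beyond their spread. Xbp1, whose spliced form drives reticulum chaperones, measured 2143, 2248 and 2125 in heterozygous and 2152, 2377 and 2230 in wild-type brains, with overlap and a log2 difference of -0.05 (SE 0.08). All 4 of its tested probe sets were lower in sign, from -0.20 to -0.05. Splicing of Xbp1 was not analysed here. Atf4, the translation-controlled factor of the integrated stress response, measured 1038, 1235 and 1367 against 988.8, 1285 and 1295, a log2 difference of 0.03 (SE 0.13). Each genotype had 1 low brain, and the groups overlapped. Ddit3, or Chop, a target of Atf4 linked to cell death, measured 302.6, 240.1 and 318.8 against 285.4, 272.2 and 314.5, at -0.02 (SE 0.12). Atf6 measured 251.1, 277.3 and 263.0 against 296.4, 269.4 and 299.8, a log2 difference of -0.12 (SE 0.10), with wild type 2 inside the heterozygous range. Trib3, a pseudokinase induced by Atf4 and Ddit3, was near the dim limit of 18.4 in both genotypes, at 19.3 ± 2.39 against 22.3 ± 9.42 and a log2 difference of -0.09 (SE 0.21).

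Cytosolic heat shock genes had a median log2 difference of -0.0028 over 10 genes, 5 higher and 5 lower. Hspa1a and Hspa1b, the inducible Hsp70 genes, are near-identical copies, with 296 of 300 bases of their promoter windows the same. Signal at their probe sets may be shared and is uncertain for either gene. The windows do not show this, since the transcripts that the probes read were not compared. Hspa1a measured 110.2, 96.7 and 140.0 in heterozygous and 132.2, 155.6 and 128.4 in wild-type brains, with overlap (log2 difference -0.24, SE 0.15). Hspa1b measured 138.0, 211.9 and 179.5 against 169.9, 298.2 and 188.5 (-0.27, SE 0.20), where wild type 2 stood above every other array. Without that brain the value was -0.04, and its other probe sets lay at 0.05 and 0.14.

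Wild type 2 was also the highest array for Hspa4 and Dnajb1, so for 4 of the 10 cytosolic genes, and for 11 of all 32. How often it was the highest over all genes was not counted, so this may not be particular to the members. Leaving wild type 2 out moved the cytosolic median to 0.07. Dnajb1, the inducible Hsp40 that hands clients to Hsp70, measured 855.2, 861.9 and 838.6 in heterozygous and 631.0, 999.7 and 846.8 in wild-type brains, so all heterozygous values lay between the lowest and the highest wild-type ones. Bag3, which directs clients to autophagy, lay at -0.24 (SE 0.15), and Hsph1, an exchange factor for Hsp70, at -0.01 (SE 0.08). Hspb1, the small heat shock protein Hsp27, measured 377.2, 342.8 and 258.6 against 260.0, 273.4 and 293.1, a log2 difference of 0.22 (SE 0.13) with overlap, and -0.19 at its second probe set.

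**Figure D4:**
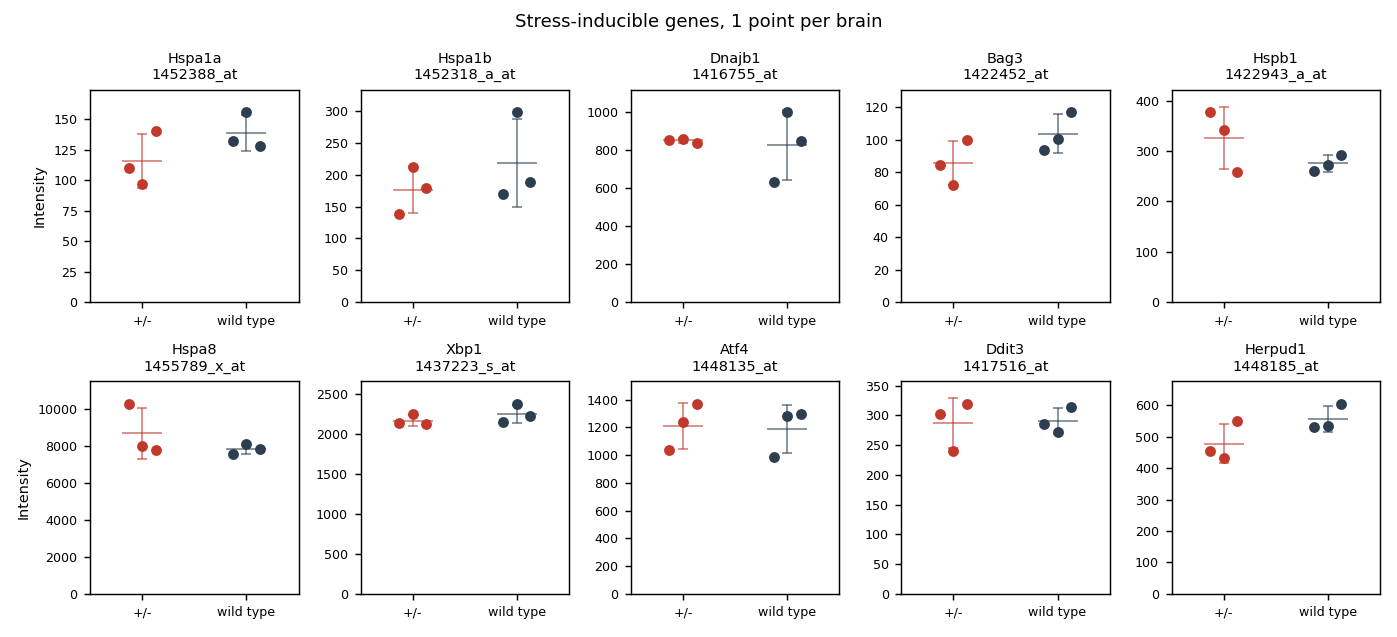
Intensity (y axis, linear, from 0) of 10 stress-inducible or stress-linked genes in heterozygous (+/-) and wild-type brains, 1 point per brain, with the mean as a line and the SD as a bar. The genotypes overlap in every panel, and wild type 2, the middle point of its group, is the highest for Hspa1a, Hspa1b, Dnajb1 and Xbp1.

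Hspa8, Hsp90aa1, Dnaja1 and Hspa4 each had tested probe sets of both signs. Hspa8, the main Hsp70 of unstressed neurons, measured 8672 ± 1372 against 7839.8 ± 271.5 at its brightest probe set, a difference of 0.13 (SE 0.11), where heterozygous 1 stood apart at 10252, beside 7986 and 7779. At its second probe set it measured 7276, 6055 and 6492 against 5689, 5938 and 5897, without overlap (0.17, SE 0.09, limma adjusted p = 0.956). Hsp90aa1 lay at -0.11 (SE 0.08). Dnaja1, an Hsp40 partner of Hspa8, measured 2771, 2667 and 2793 against 2361, 2617 and 2544, without overlap (0.13, SE 0.08, limma adjusted p = 0.956), and its other probe sets lay at 0.03 and -0.15. Hspa4, an exchange factor for Hsp70, measured 436.9, 385.6 and 480.6 against 503.6, 508.6 and 518.8 at its second probe set, without overlap (-0.23, SE 0.10, limma p = 0.0379, adjusted p = 0.956, exact permutation p = 0.1). At its brightest it lay at 0.01 (SE 0.19), and at the third at -0.01.

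The mitochondrial chaperones, which fold proteins imported into the matrix, were close to 0 at their brightest probe sets. Hspd1, the chaperonin Hsp60, measured 1604 ± 52.4 against 1644 ± 62.5 (n = 3 each), a log2 difference of -0.03 (SE 0.08). Its lid Hspe1, which shares the promoter printed above, measured 1237, 1360.3 and 1240.4 against 1256, 1395 and 1176, at 0.01 (SE 0.09). At its dimmer probe set it measured 439.4, 403.0 and 382.6 against 359.5, 368.7 and 331.8, without overlap (0.20, SE 0.09, limma p = 0.0586, adjusted p = 0.956, exact permutation p = 0.1). Hspa9, the matrix Hsp70, measured 936.7, 863.5 and 1021 against 926.2, 965.4 and 1017, at -0.05 (SE 0.09).

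**Figure D5:**
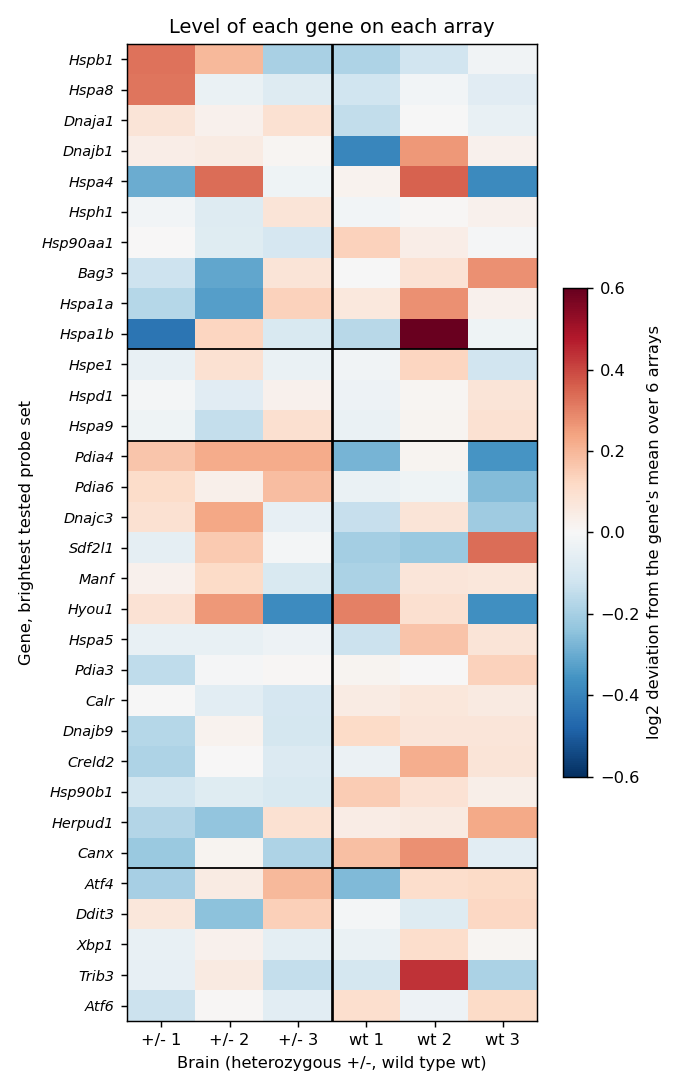
Deviation of each gene (rows, ordered by genotype difference within class) from its own mean over the 6 arrays, in log2 units, for each brain (columns). Values run from -0.44 to 0.59, the highest being Hspa1b in wild type 2, and no class is of 1 colour across a genotype.

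Probe sets of 1 gene often differed in sign. Of 22 genes with more than 1 tested probe set, 8 were lower at each of them, 2 (Pdia6 and Hspe1) higher at each and 12 mixed. The 8 were Hsph1, Hsp90b1, Canx, Calr, Pdia3, Herpud1, Xbp1 and Atf6, of which Hsph1 alone is cytosolic. The median spread within a genotype was 0.13 on the log2 scale over the 32 genes, beside 0.15 over all genes, and 0.18 in the cytosolic class, the widest of the classes.

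Other genes of the same pathways were described by lists, and none of their members was called by limma over all probe sets. Over all genes, 4.38% had an unadjusted p below 0.05, 2.26% lower and 2.13% higher, against which the counts of the lists are to be read. Among 32 tested partners of the cytosolic chaperones, 16 were higher and 16 lower in sign (median 0.00). Of these, 2 (6.25%) had a limma p below 0.05, both lower: Hspa4l, a relative of Hspa4, at -0.25 (SE 0.09), and the small heat shock gene Cryab, at -0.30 (SE 0.14). Cryab is abundant in oligodendrocytes, 5 of whose 6 markers were tested and lay between -0.02 and 0.10. It measured 857.4 in heterozygous 3 and 1192 to 1419 on the other arrays. By moderated t the leading higher ones were Cdc37, which loads kinases onto Hsp90, at 0.12, and Bag6 at 0.13. In the 8 genes of the cytosolic chaperonin, Cct3 was highest at 0.24 (SE 0.09, limma adjusted p = 0.956) and the only one with an unadjusted p below 0.05, and Cct7 lay at 0.06, with Cct4 at -0.10 and Cct2 at -0.04. Among 12 tested mitochondrial chaperones and proteases, 3 of them members, Timm44, which anchors Hspa9 at the import channel, measured 532.2, 496.8 and 470.5 against 396.1, 401.5 and 403.3 (0.31, SE 0.09, limma adjusted p = 0.956) and was the only one with an unadjusted p below 0.05. Clpp was at 0.15, Clpx at -0.27 and Lonp1 at -0.23.

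In the reticulum, the wider folding list had 16 of 24 genes higher in sign (median 0.04), unlike the members, of which 9 of 14 were lower; the difference between the lists was not tested. By moderated t its leading lower genes were Dnajc10, a disulfide reductase, at -0.23 (SE 0.10, limma adjusted p = 0.956), the only one with an unadjusted p below 0.05, and Hspa13 at -0.22, and its leading higher ones the oxidase Ero1b at 0.15 and Erp44 at 0.12. Of 21 genes of reticulum-associated degradation, 12 were higher (median 0.03), from Ube2j1 at -0.22 and Edem3 at -0.14 to Edem2 at 0.14 and Aup1 at 0.15. Of 13 sensors and their partners, 7 were higher (median 0.00), with Eif2ak3, which encodes Perk, at 0.26 (SE 0.13) and Creb3 at 0.10, against Traf2 at -0.33 and Tmbim6 at -0.16. The 22 genes of the integrated stress response had 13 higher (median 0.02), from the cystine transporter gene Slc7a11 at -0.43 (SE 0.20) and Psat1 at -0.15 to Shmt2 at 0.16 and Sesn2 at 0.26. The 20 genes of the translocon lay between -0.13 (Sec11a) and 0.15 (Ssr2), with Srp14 at -0.12 and Spcs1 at 0.12. No gene of the degradation, sensor, stress response or translocon lists had a limma p below 0.05.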

How the data were processed

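Whole-brain RNA from 3 heterozygous and 3 wild-type mice was hybridised to 1 Affymetrix array each, after oligo(dT)-primed cRNA labelling, per the labels' protocols. The authors' deposited values are linear intensities, with a single one for each probe set on each array. The mean of the central values was 150.0 on every array, so the authors had scaled them to a common level. Which software summarised the probes no source used here says. Probe sets were named through the platform annotation, with symbols updated by Entrez identifier through a RefSeq table of GRCm38.p6. Of the 45037 probe sets left after 64 controls were set aside, 34945 had 1 gene, 932 several and 9160 none. The members matched on symbol.

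Intensities were transformed as log2(value + 16). Probe sets at or below the 40th percentile of the mean log2 value, a signal of 18.4, were left out as dim (18015), with 10 member probe sets among them, which left 27022. These were fitted with limma 3.58.1 (R 4.3.3) by lmFit and a trended eBayes step, with genotype alone in the model. The limma tests were two-sided, and p-values were adjusted by Benjamini-Hochberg across all tested probe sets, with a threshold of 0.05. Two-sided exact permutation tests over the 6 arrays were run for single probe sets. The procedure was tested on simulated data. Nothing says whether same-numbered animals shared a litter or a hybridisation day.

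Every member is named. Per-array values are given for members with a limma p below 0.05, those without overlap, the extremes of each class and fixed readouts of the stress pathways, and of each further pathway list the 2 highest and 2 lowest by moderated t are named. Uggt1, Uggt2, Ganab, Prkcsh and Mogs are named besides, as genes of the lectin cycle. Marker lists of brain cells, pituitary and blood had no such rule, and the markers named were chosen after their values were seen. The members, lists and rules were chosen with earlier results of these data known. The alternatives tried were median centring, quantile normalization, a pseudocount of 1 or 64, other dim filters, eBayes without trend, a replicate block, leaving out each array and averaging the probe sets of a gene. The second and the third probe set of a gene are counted by mean log2 level.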

Additional observations from a re-analysis of the deposited data

How the results depend on the processing

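The count of 0 called member probe sets was the same under all 14 alternatives run over probe sets, where the lowest limma adjusted p of any member was 0.444. The number of member genes with an unadjusted limma p below 0.05, 3 as reported, was 6 with quantile normalization, 5 with median centring and 1 with eBayes without trend. It ranged from 0 to 3 with single arrays left out, with 0 without wild type 1 and 1 without heterozygous 1. Over all 27022 tested probe sets, those with such a p numbered 1306 as reported. They numbered 1324 with quantile normalization, 1373 with median centring and 1428 with eBayes without trend. Their number was 1087 without wild type 1 and 1206 without heterozygous 1. The cause of these changes was not tested. The median log2 difference of the cytosolic genes, -0.0028 as reported, ranged from -0.0753 without wild type 3 to 0.0731 without wild type 2, and that of the reticulum genes and regulators, -0.08 as reported, from -0.11 to -0.04. It stayed below 0 in each alternative run. For the member probe sets, the log2 difference changed sign in 59 of 976 recalculations. Of the 26 probe sets with a difference of at least 0.15 in size, 1 did so, in 2 recalculations: the second of Hyou1, at 0.17, was at -0.14 without heterozygous 3 and at -0.05 without wild type 1. The replicate number as a block, with the unnumbered first heterozygous title read as number 1, gave 8 member genes with an unadjusted limma p below 0.05 and 0 called probe sets. The block raised the count over all 27022 tested probe sets too, from 1306 to 1894 with such a p. Deviations of same-numbered arrays correlated at 0.08, 0.20 and -0.02. No values for arrays of unlike number are given beside them, so they cannot settle whether the numbers pair the samples. The main model left the numbers out.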
